A study of Homo sapiens with 8 samples.

Results

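This account covers 10 genes of the KDM family of histone lysine demethylases in DU145 cells with and without SOX11: KDM1A, KDM2A, KDM2B, KDM3B, KDM4A, KDM4B, KDM5A, KDM5B, KDM6B and KDM7A. They were matched by gene symbol to rows of a table of 32066 Ensembl genes, and all 10 were found. The genes were chosen from the family when results of the SOX11 against control comparison were already known, and all 10 have a higher fitted level with SOX11. Their values in that comparison are therefore a description, with no test read from them. DU145 is an established epithelial line of prostate carcinoma that came from a brain metastasis. RNA sequencing was done on 4 libraries of control DU145 cells and 4 libraries of DU145 cells that expressed SOX11, a transcription factor with a DNA-binding HMG box, from an introduced sequence. All cells were grown in the same serum-containing medium. No source used here gives the vector, its promoter or whether the cells are 1 clone, and the labels do not say that libraries of a group came from separate cultures, so the errors measure the spread between these libraries only.

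Histone demethylases take methyl groups off lysines of histone tails and so act against the methyltransferases that place them. KDM1A, also called LSD1, is a flavin-dependent amine oxidase, whereas the other 9 carry a JmjC domain that uses iron, oxygen and 2-oxoglutarate. The family is divided by its targets: KDM1A and the KDM5 enzymes act on H3K4, KDM2 enzymes on H3K36, KDM3 enzymes on H3K9, KDM4 enzymes on H3K9 and H3K36, KDM6 enzymes on H3K27, and KDM7A on H3K9 and H3K27. KDM1A is best known from repressor complexes that silence neuronal genes in other cells, and KDM5B from slow-cycling melanoma cells.

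The start regions of the genes with the largest differences are shown with their CG dinucleotides, a feature the choice of genes did not use. The RefSeq table (GRCh38.p14) gives windows from 250 bases before to 50 bases after each start. In its 35116 windows the median number of CG dinucleotides was 14, and 41.2% of windows held at least 20. KDM2A, KDM2B and KDM6B have several windows, of which the poorest held 12, 15 and 2. The richest window of each listed gene held between 20 (KDM5A) and 56 (KDM7A), which is not a like measure to single windows. Other demethylase genes had such windows too, with 39 for KDM1B, 31 for KDM3A, 55 for PHF2 and 44 for JMJD1C. The 250 bases before each start are printed with every CG in capitals, 5′ to 3′ along the gene's own strand. They lie at chr1:202808422-202808671 on the minus strand for KDM5B, chr17:7833967-7834216 and chr17:7839667-7839916 on the plus strand for the upstream and downstream starts of KDM6B, and chr7:140176984-140177233 on the minus strand for KDM7A.
KDM5B: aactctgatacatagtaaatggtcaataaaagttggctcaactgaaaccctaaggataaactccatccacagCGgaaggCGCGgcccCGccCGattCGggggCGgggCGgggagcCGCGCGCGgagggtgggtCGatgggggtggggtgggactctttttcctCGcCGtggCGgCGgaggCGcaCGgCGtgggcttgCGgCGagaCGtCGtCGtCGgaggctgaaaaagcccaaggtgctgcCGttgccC
KDM6B, upstream start: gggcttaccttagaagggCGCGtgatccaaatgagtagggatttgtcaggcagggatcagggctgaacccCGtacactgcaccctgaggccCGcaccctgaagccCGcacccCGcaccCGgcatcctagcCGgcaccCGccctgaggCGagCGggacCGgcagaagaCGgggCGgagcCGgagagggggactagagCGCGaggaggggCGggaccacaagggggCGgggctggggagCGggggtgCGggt
KDM6B, downstream start: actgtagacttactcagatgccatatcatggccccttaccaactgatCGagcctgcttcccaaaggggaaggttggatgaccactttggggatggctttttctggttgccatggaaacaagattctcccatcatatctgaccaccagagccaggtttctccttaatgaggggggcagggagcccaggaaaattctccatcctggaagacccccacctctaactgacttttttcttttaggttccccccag
KDM7A: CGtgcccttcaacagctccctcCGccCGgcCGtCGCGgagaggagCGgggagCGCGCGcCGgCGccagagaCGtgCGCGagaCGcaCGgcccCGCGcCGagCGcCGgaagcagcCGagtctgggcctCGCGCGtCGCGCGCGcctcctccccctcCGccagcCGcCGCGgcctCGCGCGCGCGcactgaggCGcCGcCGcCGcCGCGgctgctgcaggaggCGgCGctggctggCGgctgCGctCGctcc
The stretches hold 27 CG dinucleotides for KDM5B, 21 at the upstream and 1 at the downstream start of KDM6B, and 50 for KDM7A. The last capital C of the KDM5B stretch belongs to a CG whose G lies past the printed end, and it is not counted. Counts per gene do not separate the 2 starts of KDM6B.

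The SOX consensus letters ACAAAG or AACAAT were searched on both strands of the windows. ACAAAG was in 16.1% of all windows and AACAAT in 10.1%. Among the 10 genes only KDM2B had a match, 1 of each, in windows of different starts. They are shown with 12 bases on each side and the match in capitals, the first 55 bases and the second 132 bases before its start.
KDM2B, AACAAT on the gene's strand: agcgcgatcggcAACAATgtttacgttccg
KDM2B, ACAAAG on the opposite strand: aggccgggctccCTTTGTgtgcggccccag
The other 9 genes had neither run of letters in these windows, which says nothing of sites elsewhere. Of the core letters of the hypoxia response element, read because several of these genes respond to low oxygen, ACGTG was in 21.4% of all windows and in a window of 4 of the genes. GCGTG was in 36.5% of all windows and in a window of 9 of the genes, some of which have several windows. A match is a run of letters, not a bound site.

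SOX11 itself had 0 counts in every control library and 303 to 317 counts in the SOX11 libraries. Library totals ran from 14641250 to 18706095 counts. The epithelial genes EPCAM, CDH1, KRT8, KRT18 and KRT19 were all detected, with a summed level of 1497 to 1761 CPM (counts scaled to library size) in control and 1200 to 1206 CPM in SOX11 libraries. KRT8, KRT18 and KRT19 were called lower. EPCAM was at 44.6 and 47.7 CPM, with every SOX11 library above every control library, and CDH1 at 42.1 and 38.8 CPM, and neither was called. In bulk RNA, fewer cells of a type and less RNA per cell cannot be told apart. Blood (2 of 5 markers in the table) and endothelial markers (4 of 4) summed to less than 1 CPM in every library. Fibroblast markers (4 of 6) summed to 3.33 to 5.43 CPM in control and 5.84 to 7.71 CPM in SOX11 libraries, most of it COL1A1. COL1A1 was called higher, with a log2 fold change of 0.72.

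SOX11 replicate 1 stood apart from the other 7 libraries. It held 95 counts of KLK3, 161 of KLK2 and 24 of TMPRSS2, genes of luminal prostate cells. The other libraries held 0 to 4 counts of KLK3, 0 to 3 of KLK2 and 0 to 1 of TMPRSS2. In a search made after this was seen, 32 genes had at least 20 counts in that library and at most 5 in each of the others, and no other library had such a gene. Those 32 genes, HOXB13 and FOLH1 among them, made up 0.0101% of its counts. Each result that follows is also given without this library where it matters, and its part in the results was not tested otherwise.

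Of the listed H3K4 demethylases, KDM5B had the largest log2 fold change. KDM5B (ENSG00000117139, chromosome 1, 202724495 to 202809470, minus strand, GRCh38) was at 70.3, 64.4, 69.9 and 62.8 CPM in control and 83.3, 85.4, 76.8 and 77.6 CPM in SOX11 libraries. Every SOX11 library lay above every control library. The means were 66.9 ± 3.801 and 80.7 ± 4.23 CPM (SD, n = 4), a log2 fold change of 0.27 ± 0.0456 (SE) or 20.9% more. Without SOX11 replicate 1 the log2 fold change was 0.26. These values rest on 906 to 1443 counts per library.

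KDM5A (ENSG00000073614, chromosome 12, 280129 to 389454, minus strand), the paralog of KDM5B first found as a retinoblastoma-binding protein, was at 56.7, 57.7, 60.7 and 55.1 CPM in control and 61.1, 65.7, 62.0 and 65.3 CPM in SOX11 libraries. The groups did not overlap, but control replicate 3 and SOX11 replicate 1 were close together. The log2 fold change was 0.14 ± 0.0443 over all libraries and 0.16 without SOX11 replicate 1. KDM5A overlaps CCDC77 on the opposite strand, and no source used here states whether counting used strand.

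KDM1A (ENSG00000004487, chromosome 1, 23019443 to 23083689, plus strand), the catalytic subunit of the CoREST complex, was at 124.3, 131.9, 134.3 and 133.3 CPM in control and 142.0, 135.7, 149.9 and 153.6 CPM in SOX11 libraries. SOX11 replicate 2 was just above the highest control library. The means were 131.0 ± 4.56 and 145.3 ± 8.01 CPM, a log2 fold change of 0.15 ± 0.0387, and 0.16 without SOX11 replicate 1.

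The enzymes of H3K36 and H3K9 showed smaller or less even differences. KDM4A (ENSG00000066135, chromosome 1, 43650158 to 43705515, plus strand), which acts on both lysines, was at 22.6, 22.8, 23.1 and 21.1 CPM in control. Its SOX11 libraries were at 27.2, 27.4, 23.8 and 23.2 CPM. The first 2 stood well above the controls and the other 2 only just above them. The log2 fold change of 0.18 ± 0.0649 was 0.15 without SOX11 replicate 1. KDM4A overlaps its antisense gene KDM4A-AS1.

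KDM4B (ENSG00000127663, chromosome 19, 4969113 to 5153595, plus strand), known as a hypoxia-induced gene, was at 23.9, 24.2, 27.5 and 27 CPM in control and 30.1, 28.3, 26.7 and 23.8 CPM in SOX11 libraries. The groups overlapped, and SOX11 replicate 1 was the highest of all 8. Over all libraries the log2 fold change was 0.09 ± 0.0677, and leaving that one out gave 0.04. It was 0.06 without control replicate 1 and 0.15 without SOX11 replicate 4, so that single libraries moved it by more than 1.5 times either way.

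KDM3B (ENSG00000120733, chromosome 5, 138352596 to 138437028, plus strand), an H3K9 demethylase, was at 107.4, 103.6, 112.5 and 104.1 CPM in control and 114.6, 111.6, 112.7 and 116.8 CPM in SOX11 libraries. Only control replicate 3 reached into the SOX11 range. The log2 fold change was 0.09 ± 0.0367, with a 95% interval from 0.02 to 0.17.

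KDM2A and KDM2B recognise unmethylated CpG DNA through a CXXC zinc finger and act on H3K36. KDM2A (ENSG00000173120, chromosome 11, 67119269 to 67258087, plus strand) was at 278.1, 283.8, 272.7 and 276.9 CPM in control and 295.5, 273.5, 290.6 and 285.5 CPM in SOX11 libraries. KDM2B (ENSG00000089094, chromosome 12, 121429097 to 121581015, minus strand) was at 31.4, 32.9, 30.7 and 31.1 CPM in control and 31.5, 33.7, 32.4 and 33.0 CPM in SOX11 libraries. Both pairs of groups overlapped. The log2 fold changes were 0.04 (95% interval -0.02 to 0.11) for KDM2A and 0.05 (-0.06 to 0.15) for KDM2B. KDM2A was at 0.03 without SOX11 replicate 1 and at 0.06 without SOX11 replicate 2, and KDM2B at 0.03 without SOX11 replicate 2. KDM2B overlaps RNF34 and KDM2B-DT on the opposite strand.

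KDM6B, the H3K27 demethylase also called JMJD3 that is induced by differentiation and inflammatory signals, had the largest log2 fold change of the 10. KDM6B (ENSG00000132510, chromosome 17, 7839904 to 7854796, plus strand) was at 26.6, 23.3, 23.7 and 25 CPM in control and 34.6, 28.7, 30.7 and 29.7 CPM in SOX11 libraries. The lowest SOX11 library lay above the highest control library, and SOX11 replicate 1 was the highest of the 4. The means were 24.6 ± 1.47 and 30.9 ± 2.55 CPM, a log2 fold change of 0.33 ± 0.0630 or 25.6% more. Without SOX11 replicate 1 the mean was 29.7 ± 0.954 CPM and the log2 fold change 0.27.

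KDM7A (ENSG00000006459, chromosome 7, 140084746 to 140177035, minus strand), which acts on H3K9 and H3K27, was the least abundant, with 87 to 141 counts per library. It was at 8.88, 6.06, 5.98 and 6.51 CPM in control and 8.33, 8.34, 7.60 and 7.55 CPM in SOX11 libraries. Control replicate 1 lay above all 4 SOX11 libraries, while the other 3 controls lay below them. The log2 fold change was 0.22 ± 0.116 over all libraries, and there the gene was not called. With control replicate 1 left out it was 0.37, and in that fit the gene was called.

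**Figure D1:**
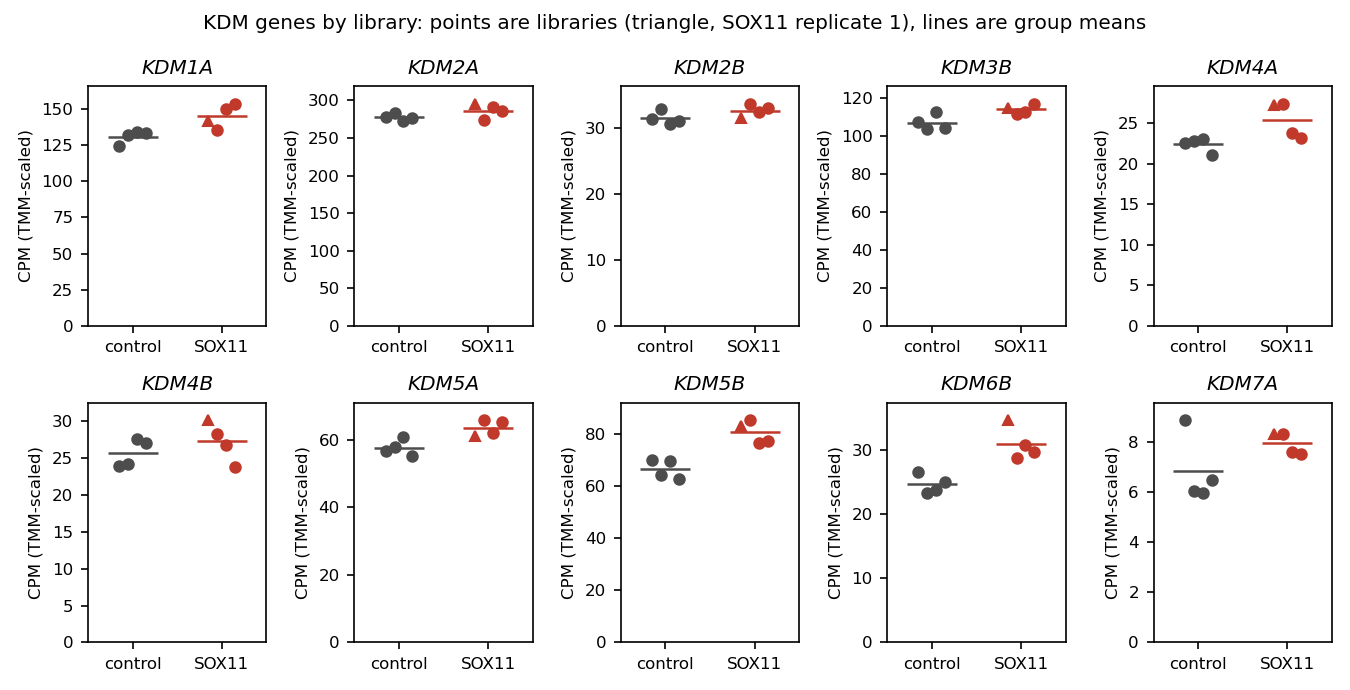
TMM-scaled CPM (y axis, from 0) of the 10 KDM genes in each library, grouped as control and SOX11 (x axis), with 1 panel per gene. Points are libraries, the triangle is SOX11 replicate 1 and lines are group means. KDM5B and KDM6B have every SOX11 library above every control library, KDM2A and KDM2B overlap, and KDM7A has 1 high control library.

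All 10 genes passed the filter on low counts. At an edgeR adjusted p below 0.05 (Benjamini-Hochberg over 15665 genes), 5 of the 10 were called higher (KDM1A, KDM4A, KDM5A, KDM5B and KDM6B) and 0 lower, where 10.3% of all tested genes were called higher and 9.67% lower. Since the genes were picked with this comparison known, the count is not evidence about the family. The same 5 had every SOX11 library above every control library, as did 10.6% of all tested genes. The median log2 fold change of the 10 was 0.15, and that of all tested genes was 0.00111. Without SOX11 replicate 1, 4 of the 10 were called higher (KDM1A, KDM5A, KDM5B and KDM6B), where 8.28% of all genes were. KDM1A, KDM5B and KDM6B were called in all 17 alternative fits. KDM4A lost its call in 9 of them, among these the fits without any 1 control library and those without SOX11 replicate 1 or 2. KDM5A lost it in 7, among these the fits without replicate 2 or 4 of either group. KDM3B was called without control replicate 3, at 0.12.

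The spread between control libraries was near the counting error for several genes. The coefficient of variation (SD over mean) was 1.66% for KDM2A against 1.51% from counting alone, 4.01% against 5.32% for KDM4A and 5.96% against 5.08% for KDM6B. It was further above counting error for KDM7A, at 19.96% against 9.62% with its high control replicate 1, for KDM5B, at 5.69% against 3.08%, and for KDM1A, at 3.48% against 2.20%. In the SOX11 libraries KDM1A stood furthest above counting error, at 5.51% against 2.06%. KDM2A followed at 3.31% against 1.47%, and KDM4B at 9.87% against 4.75%. KDM5B varied by 5.24% against 2.76% and KDM6B by 8.24% against 4.46%.

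The KDM transcripts are long, and long transcripts were slightly higher in the SOX11 libraries as a whole. Of the 10 genes, 8 were in the longest quintile of tested genes by merged exon length (6004 bases or more), with KDM4A in the next quintile and KDM1A in the middle one. The median log2 fold change of all genes was -0.04 in the shortest quintile and 0.03 in the longest, and 17.4% of the longest quintile were called higher against 3.98% of the shortest. With offsets for length and GC content, the log2 fold changes were 0.27 for KDM6B, 0.22 for KDM5B, 0.19 for KDM7A, 0.17 for KDM4A, 0.16 for KDM1A and 0.10 for KDM5A. KDM3B was at 0.06 and KDM4B at 0.03. KDM2A and KDM2B were at 0.0049 and 0.0019. KDM5A then lost its call, and KDM2A, KDM2B and KDM4B moved by more than 1.5 times. The part of transcript length in the values was not tested further.

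**Figure D2:**
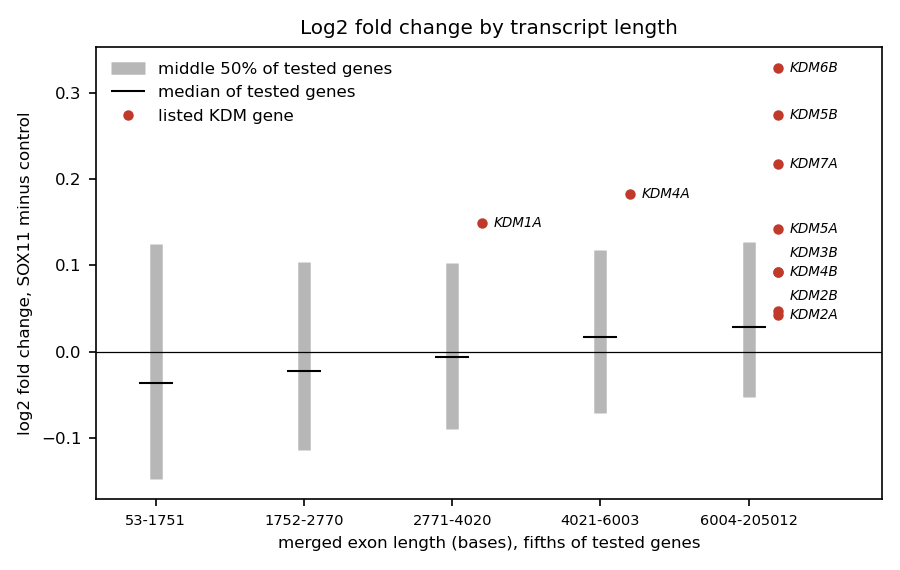
Log2 fold change, SOX11 minus control (y axis), by merged exon length in bases (x axis, quintiles of the tested genes). Grey bars are the middle 50% of all genes, black dashes their medians and red points the listed KDM genes. The medians run from -0.04 in the shortest to 0.03 in the longest quintile, where 8 of the 10 KDM genes lie.

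Levels per length differed far more between the genes than between the groups. On the scale of CPM per kilobase of merged exons, the control means were 41.9 ± 1.46 for KDM1A, 35.5 ± 0.589 for KDM2A and 15.7 ± 0.599 for KDM3B. The control libraries of these 3 genes did not overlap. A close group followed, with KDM5A at 5.35 ± 0.219, KDM4A at 5.003 ± 0.200, KDM5B at 4.77 ± 0.271 and KDM2B at 4.32 ± 0.130. Neighbours in that group had overlapping control libraries. KDM6B was at 3.67 ± 0.219 and KDM4B at 3.45 ± 0.251, which also overlapped each other, and KDM7A was lowest at 0.740 ± 0.148. From KDM1A to KDM7A the range was 56.6-fold.

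In SOX11 libraries KDM1A, KDM2A and KDM3B led in the same order, at 46.5 ± 2.56, 36.6 ± 1.21 and 16.7 ± 0.336 CPM per kilobase. KDM5B was at 5.77 ± 0.302, KDM4A at 5.68 ± 0.492, KDM6B at 4.605 ± 0.380 and KDM2B at 4.47 ± 0.124, and the differences between the neighbours KDM5B and KDM4A and between KDM6B and KDM2B were smaller than the larger SD of each pair. The order within the close group depends on the length used. Divided by the longest annotated transcript, KDM5B was at 6.46 and KDM2B at 6.04 in control and both stood above KDM5A (5.35), with KDM6B at 3.67, while the first 3 genes and the last kept their places.

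**Figure D3:**
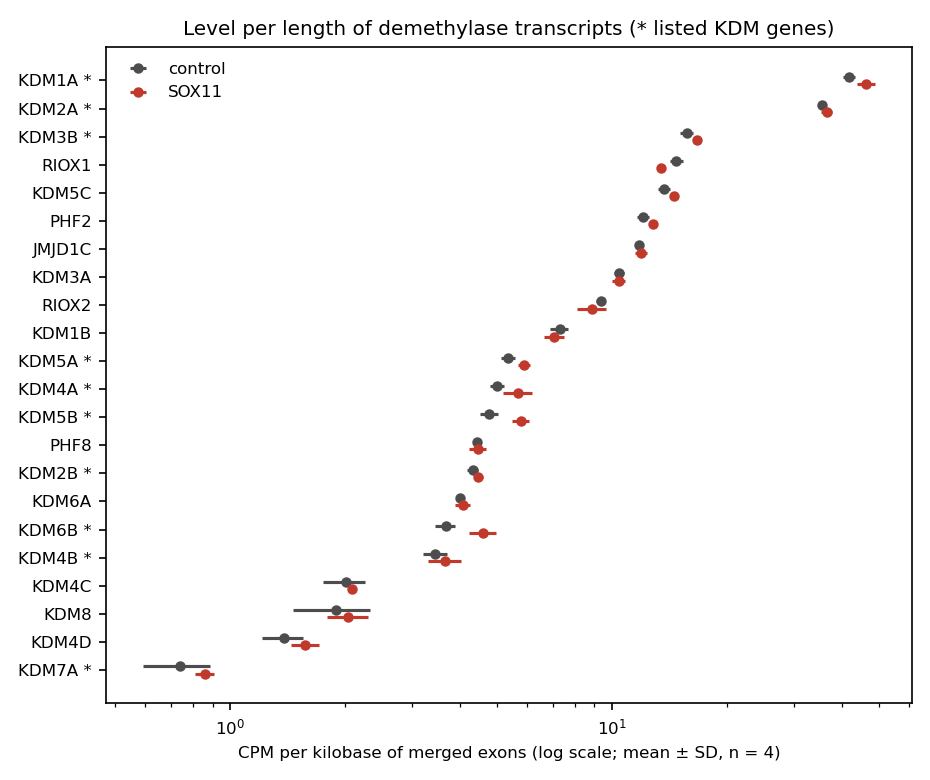
Level per length (x axis, log scale, CPM per kilobase of merged exons, mean ± SD, n = 4) of 22 demethylase genes (y axis, ordered by control level, asterisks mark the listed KDM genes). KDM1A and KDM2A lie above all others in both groups, and KDM7A is lowest.

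Ratios within subfamilies compare genes in the same library. The log2 ratio of KDM6B to its X-linked paralog KDM6A was 0.05 ± 0.0580 in control and 0.35 ± 0.0913 in SOX11 libraries (SD, n = 4), with no overlap between the groups. KDM6A, which acts on the same lysine, was at 23.8 ± 0.468 and 24.1 ± 1.12 CPM. For KDM5B over KDM5A the log2 ratio was 0.21 ± 0.0654 and 0.35 ± 0.0864, with overlap. KDM2A over KDM2B was at 3.14 ± 0.0206 and 3.13 ± 0.0872. KDM1A over KDM1B was at 1.96 ± 0.119 and 2.16 ± 0.128, and KDM5B over KDM5C at -0.49 ± 0.129 and -0.30 ± 0.0804. Groups overlapped for all of these, and for KDM4A over KDM4B, KDM4A over KDM4C and KDM3B over KDM3A. The difference of these ratios between groups was not tested, since KDM genes enter them that were picked by their change.

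The rest of the family is what the choice of the 10 left behind, so its values are a description too and no independent test. Of 13 other demethylase genes in the table (Y-linked paralogs were left out), 12 passed the filter, and HR, with 0.140 CPM in control, did not. By edgeR 0 of the 12 were called, with 3 at an unadjusted p below 0.05, and DESeq2 and limma-voom also called 0. Across all tested genes 20% were called, and nothing is read from the difference, since the choice of the 10 bears on it. The median log2 fold change of the 12 was 0.02. RIOX1, a nucleolar JmjC hydroxylase, went from 35.9 ± 1.45 to 32.7 ± 0.678 CPM (log2 fold change -0.13 ± 0.0516, adjusted p = 0.0728 by edgeR) with no overlap of the groups. KDM5C, the X-linked H3K4 demethylase, was at 93.9 ± 3.51 and 99.6 ± 0.860 CPM (0.08 ± 0.0373, adjusted p = 0.112 by edgeR). Every SOX11 library of KDM5C lay above every control library. PHF2 was at 67.3 ± 2.43 and 71.5 ± 1.09 CPM (0.09 ± 0.0408, edgeR adjusted p = 0.137), and its groups overlapped. KDM3A, a hypoxia-induced H3K9 demethylase, was at 53.1 ± 1.69 and 53.0 ± 2.15 CPM, with a 95% interval of the log2 fold change from -0.10 to 0.09. JMJD1C, the highest of the 12 in CPM not divided by length, was at 106.8 ± 1.48 and 108.3 ± 3.70 CPM. RIOX1, KDM5C and PHF2 were named after their values were seen, as were KDM3A and KDM6A.

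**Figure D4:**
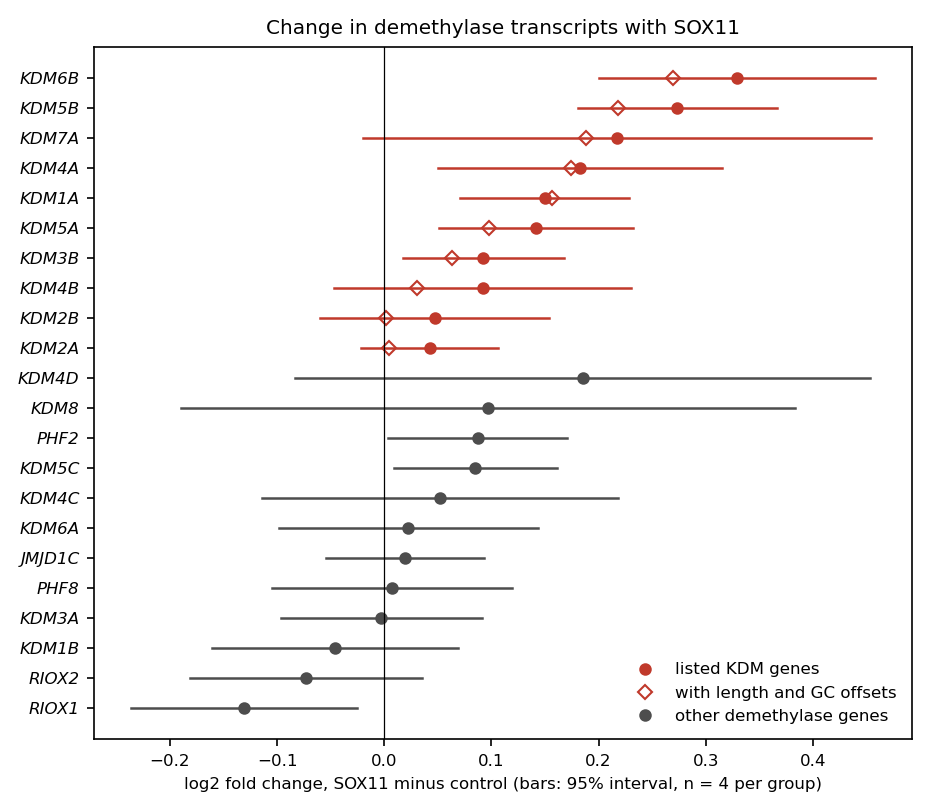
Log2 fold change, SOX11 minus control (x axis, bars are 95% intervals, n = 4 per group), of the 10 listed KDM genes (red) and 12 other demethylase genes (grey), each ordered by size. Open diamonds are the values of the listed genes with length and GC offsets, which lie lower for all of them but KDM1A. KDM6B is highest at 0.33 and RIOX1 lowest at -0.13.

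The methyltransferases that place the same marks were read as lists, beside 10.3% of all tested genes called higher and 9.67% lower. Of 14 tested H3K4 methyltransferase genes and core subunits 1 was higher and 0 lower, with a median log2 fold change of -0.0095. That gene was KMT2A, which rose from 139.2 ± 4.08 to 150.3 ± 2.54 CPM (0.11 ± 0.0339, edgeR adjusted p = 0.0195). Of 7 H3K9 methyltransferase genes 1 was higher, EHMT2, also called G9a (0.11 ± 0.0396, edgeR adjusted p = 0.0464), and 0 lower. The control and SOX11 libraries of EHMT2 overlapped. KMT2A and EHMT2 both lost their calls without SOX11 replicate 1 (adjusted p = 0.0602 and 0.197) and with length and GC offsets (0.284 and 0.107), and both also did without control replicate 4, EHMT2 further without control replicate 1 or 3 or SOX11 replicate 3. Of 7 H3K36 methyltransferase genes 2 were higher and 0 lower. NSD1, which places H3K36 methylation, rose from 116.4 ± 2.65 to 135.8 ± 3.85 CPM (0.22 ± 0.0351, edgeR adjusted p = 2.05e-05). SETMAR, a fusion of a SET domain and a transposase, rose from 8.83 ± 0.574 to 13.4 ± 1.41 CPM (0.61 ± 0.0910, adjusted p = 9.13e-06) and overlaps SUMF1 on the opposite strand. Of the 4 H3K27 methyltransferase subunit genes edgeR, DESeq2 and limma-voom called 0, with 1 at an unadjusted p below 0.05. SUZ12, with the highest mean CPM over all 8 libraries, was at 117.7 ± 1.94 and 117.2 ± 2.07 CPM, and EZH2, the catalytic subunit, was close to it at 119.2 CPM in control and 113.6 CPM in SOX11 libraries. EZH2 was named after its values were seen.

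The CoREST complex around KDM1A was read through 14 tested genes. Of these, 6 were higher and 0 lower, where 10.3% of all tested genes were higher and 9.67% lower, with a median log2 fold change of 0.10, and without SOX11 replicate 1 the same 6 were called. Of the 14, 11 had a log2 fold change above 0, where 50.3% of all tested genes did. This list too was chosen with earlier results of these data known, so its counts are a description. RCOR2, a CoREST scaffold of neural and stem cells, rose from 0.774 ± 0.222 to 2.19 ± 0.439 CPM (1.46 ± 0.242, edgeR adjusted p = 3.84e-05) on only 8 to 43 counts per library. Its far more abundant paralog RCOR1 was at 112.6 ± 1.13 and 110.4 ± 3.78 CPM (-0.03 ± 0.0358) and was not called. RCOR1 was named after its values were seen. PHF21A, the subunit that reads unmethylated H3K4, rose from 33.4 ± 0.809 to 39.5 ± 0.911 CPM (0.24 ± 0.0497, adjusted p = 0.000613 by edgeR). ZMYM2 (0.16 ± 0.0389) and GSE1 (0.13 ± 0.0337) rose too, and the other two were HDAC2 and ZMYM3.

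Partners of KDM2B and of the KDM5 enzymes were read in the same way, beside 10.3% of all tested genes called higher and 9.67% lower. Of the 9 PRC1.1 genes that work with KDM2B, edgeR, DESeq2 and limma-voom called 0, with 2 at an unadjusted p below 0.05, and the highest in CPM, USP7, was at 159.6 ± 5.89 and 160.9 ± 4.54 CPM. Of 8 genes of SIN3 and other complexes that bind KDM5 enzymes, 2 were higher and 1 lower. EMSY rose from 44.2 ± 1.18 to 49.7 ± 1.45 CPM (0.17 ± 0.0462, edgeR adjusted p = 0.00794). RBPJ, the DNA-binding factor of NOTCH signalling, rose by 0.11 and SIN3A fell by 0.10 on the log2 scale. The call of RBPJ ended without replicate 1, 3 or 4 of the controls or 3 or 4 of the SOX11 group. That of SIN3A ended without replicate 2 or 3 of the controls or 1, 3 or 4 of the SOX11 group. DESeq2 called 1 of the 8, and neither RBPJ nor SIN3A. RBPJ also lost its call with no filter, and SIN3A with upper quartile scaling or the replicate number as a block.

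JmjC enzymes use 2-oxoglutarate as a cosubstrate and are inhibited by succinate and fumarate, and the genes of enzymes that make or use these metabolites were read as a list. Of 18 tested, 6 were lower and 1 higher, with a median log2 fold change of -0.07, where 9.67% of all tested genes were lower and 10.3% higher. IDH3A, of the mitochondrial NAD-dependent isocitrate dehydrogenase that makes 2-oxoglutarate, fell from 88.2 ± 1.85 to 70.9 ± 0.914 CPM (-0.31 ± 0.0382, edgeR adjusted p = 2.75e-07). IDH2, the NADP-dependent mitochondrial enzyme, rose from 32.6 ± 1.71 to 41.4 ± 1.48 CPM (0.35 ± 0.0522, adjusted p = 1.06e-05 by edgeR). SDHD, a succinate dehydrogenase subunit that overlaps TIMM8B on the opposite strand, fell from 64.4 ± 2.06 to 53.9 ± 2.26 CPM, and fumarate hydratase (FH) fell by 0.14 on the log2 scale. Without SOX11 replicate 1, 4 of the 18 were lower and 1 higher. Transcripts of these enzymes are not metabolite levels, which were not measured.

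Of 14 other 2-oxoglutarate dioxygenase genes, 3 were higher and 1 lower by edgeR and 2 were called by DESeq2, where edgeR called 20% of all tested genes. The DNA demethylases TET3 (44.2 ± 2.22 to 52.5 ± 1.87 CPM, edgeR adjusted p = 0.000355) and TET2 (29.5 ± 0.348 to 33.7 ± 1.74 CPM, adjusted p = 0.0104) rose, and the collagen hydroxylase PLOD3 fell from 88.8 ± 5.08 to 76.0 ± 4.79 CPM. TET2 was not called by DESeq2 (adjusted p = 0.0537) or with length and GC offsets (0.0563). HIF1AN, the asparagine hydroxylase of hypoxia-inducible factor, was called at a log2 fold change of 0.10 ± 0.0357, a call that ended without any one library but SOX11 replicate 2. Hypoxia-induced genes, a list read because KDM3A, KDM4B and KDM6B are known to respond to low oxygen, were 2 higher and 4 lower of 12. Of all tested genes 10.3% were called higher and 9.67% lower. ADM (1.45 ± 0.181) rose from a mean of 1.56 to 4.27 CPM, on only 20 to 81 counts per library. ANGPTL4 (0.90 ± 0.143) rose from 7.53 to 14.1 CPM, and its log2 fold change was 0.75 without SOX11 replicate 1. SLC2A1 (-0.28 ± 0.0337) fell from 218.4 to 179.6 CPM and NDRG1 (-0.30 ± 0.0688) from 26.3 to 21.35 CPM.

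**Figure D5:**
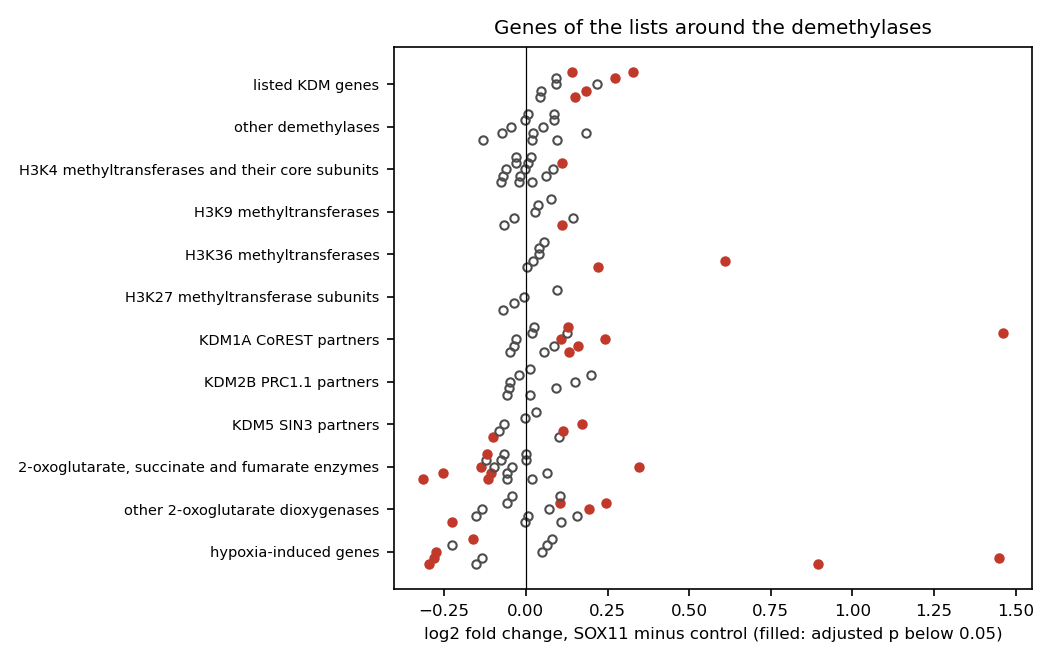
Log2 fold change, SOX11 minus control (x axis), of each tested gene in the lists around the demethylases (y axis, 1 row per list). Filled red points were called at an edgeR adjusted p below 0.05 and open points were not. CoREST partners have 6 filled points, all above 0, and the 2-oxoglutarate, succinate and fumarate enzymes have 6 below and 1 above 0.

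The genes whose pattern over the 8 libraries was most like those of KDM6B and KDM5B were found by Pearson r of log2 CPM among 9687 genes at 10 CPM or more. For KDM6B these were the linker histone gene H1-2 (r = 0.996), FBXL19-AS1 (0.983) and ZNF587 (0.981). For KDM5B they were ALDH3B1 (r = 0.995), PBXIP1 (0.989) and HEATR5A (0.988). The 8 points share the difference between the groups, so these values describe the pattern only.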

How the data were processed

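Libraries were made from polyA RNA with a TruSeq Stranded kit, per the labels' protocols. Cutadapt, FastQC, STAR (2.7.0e) and the build GRCh38 are named, per the submitters' processing notes. Neither notes nor labels used here state the read counter, strand use or annotation. Raw counts per Ensembl gene were deposited by the authors, without normalization, and each column was tied to its sample through its name. Symbols were found for 32053 of 32066 identifiers. Positions and lengths come from GENCODE 29.

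Genes were filtered on these counts (filterByExpr, minimum count 10) and compared by edgeR 4.0.16 (R 4.3.3), using TMM scaling and the quasi-likelihood test, without covariates. A gene was called at a Benjamini-Hochberg adjusted p below 0.05. CPM are TMM-scaled, and intervals are 95%. Alternatives were RLE and upper quartile scaling, no filter, at least 1 CPM in 4 libraries, DESeq2 1.42.0, limma-voom 3.58.1, offsets for length and GC (mgcv 1.9.3), a replicate block, and leaving out single libraries. The code was tested on simulated counts. Chi-square values per degree of freedom between libraries of a group were 1.43 to 3.27, so none was counted as a repeat.

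The 10 genes and the lists were chosen with earlier results of these data known. Named were the 10, up to 4 called genes of each list by adjusted p, else the one with the highest mean CPM, and for the 2 most changed genes their 3 closest patterns. Some marker genes are not reported here.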

Additional observations from a re-analysis of the deposited data

Results flagged for a closer look

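SDHD in the SOX11 group had 1 library far from the rest. SOX11 replicate 2 was at 57.3 CPM and the other 3 between 52.5 and 53.0 CPM. Without that library the log2 fold change of SDHD was -0.29 in place of -0.26 (edgeR adjusted p = 1.49e-05). Of the 74 groups checked this was the only one, where about 1 in 20 would be so by chance.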

How the results depend on the processing

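Of the 37 named genes, 24 kept their direction and their side of the threshold in all 17 alternatives. All 10 KDM genes kept a fold change above 0. Of them, 5 were called by edgeR and 3 (KDM1A, KDM5B and KDM6B) with DESeq2. With 1 library left out the number was 3 to 5, with 3 when replicate 2 of either group or replicate 4 of the controls was left out. Among the other demethylases 0 were called, but 1 (RIOX1, lower) with length and GC offsets and 0 to 1 with a library left out (1 without control replicate 1). With the replicate number as a block, 2899 genes were called in place of 3130, and of the KDM genes the same 5. Same-numbered libraries correlated from -0.0683 to 0.109 in their deviations, and libraries with different numbers from -0.0872 to 0.0832. Not every library correlated best with its own number. Whether same-numbered libraries were handled together cannot be told from such small values and was not tested further. EHMT2, SIN3A and HIF1AN lost their calls under the block.

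Genes near 0 changed sign. JMJD1C was at -0.0115 with length and GC offsets, -0.0123 with these and the block, and -0.0057 without SOX11 replicate 4 (-0.0057 to 0.0344 with 1 library left out). SUZ12 was at 0.0016 with upper quartile scaling, 0.0019 without control replicate 4 and 0.0052 without SOX11 replicate 1 (-0.0157 to 0.0052). USP7 was at -0.0061 with the offsets, -0.0067 with these and the block, and -0.0126 without control replicate 1 (-0.0126 to 0.0314). Of the calls in the lists beside the demethylases 18 of 30 were higher, against 13 of 29 with length and GC offsets and 12 of 27 with no filter. The causes were not tested.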
